A study of Homo sapiens with 8 samples.

Results

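The DNA replication machinery was examined across the 4 cell lines of the MCF10A breast cancer progression model, as a list of 51 named genes listed for their known function. Of these, 50 were matched through gene annotation to a row among the 56632 genes of the table, and UHRF1 is not analysed here. All 50 passed the filter on low counts that left 18431 genes for testing. The lowest count of any of the 50 genes in any library was 181, and they lay on 21 chromosomes.

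Poly A+ RNA was sequenced from 3D acini grown in Matrigel, with 2 biological replicates of each of M1, M2, M3 and M4. M1 is MCF10A, a non-malignant human mammary epithelial cell line. M2 (MCF10AT1k.cl2) was made by transfecting MCF10A with activated T24-HRAS and selecting through a xenograft, and M3 (MCF10Ca1h) and M4 (MCF10CA1a.cl1) came from carcinomas that grew from M2 cells in xenografts. In mice, tumors of M3 keep a more differentiated form than those of M4, which can also seed the lung. M2, M3 and M4 therefore all descend from HRAS-transfected cells, and each has its own history of selection in a host, so a line stands for itself and not for a stage seen in several tumors. M1 and M2 were grown with EGF at 10 ng/ml and M3 and M4 without it, all in 2% horse serum and harvested at day 8 by the growth protocol (the series' design text gives a span of up to 10 days). A difference of M3 or M4 from M1 or M2 therefore cannot be told apart from the change of medium, whereas M2 against M1 and M4 against M3 are each within a medium.

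Before a cell copies its DNA, the origin recognition complex, CDC6 and CDT1 load the MCM2-7 helicase onto origins in G1, and geminin (GMNN) binds CDT1 to prevent a repeat of loading later in the cycle. The kinases CDC7-DBF4 and the factors MCM10, CDC45 and GINS then turn the helicase on, and polymerases, the sliding clamp PCNA and its loader RFC copy the strands. Many of these genes are transcribed under E2F factors as cells pass from G1 into S phase, which is why their RNA is often read as a sign of cycling cells.

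Library totals ran from 69669945 to 107350288 expected counts. The replicates of M2 were the most alike, with a biological coefficient of variation of 0.0574, against 0.271 to 0.377 in the other lines, but they still differed by more than counting error (chi-square per degree of freedom 6.95, against 136 to 361 in the other lines). For 2 libraries a supplementary expression table of the study goes against the labels. The library labelled M1 replicate 2 stands there as a replicate of M2, and the library labelled M2 replicate 1 as a replicate of M1. Total HRAS RNA, at 154 and 139 CPM (a gene's share of the library's counts, on a common scale set by TMM) in M1 and 160 and 154 in M2, does not separate the libraries of M1 from those of M2. In the order of the library numbers, the labels run M1, M1, M3, M4, M2, M2, M3, M4. The other assignment runs from M1 to M4 and then from M1 to M4 again. Which assignment is right was not tested. The labels were followed throughout, and results under the other assignment are given for the tests between lines. Markers of basal mammary epithelium (KRT5, KRT14, KRT17, TP63, ITGA6 and LAMB3) summed to 7497 to 14362 CPM, those of epithelium in general (CDH1, EPCAM, KRT8 and KRT18) to 1372 to 4759, those of endothelium to at most 0.326 and those of adipocytes to at most 1.56, and PTPRC, which defines leukocytes, stood at 0 in 7 of the 8 libraries. Fibroblast markers summed to 60.1 and 8.62 CPM in M1, 74.3 and 72.4 in M2 and 6.43 to 15.7 in M3 and M4, most of it DCN where the sum was high. The leukocyte list summed to 51.4 and 39.0 CPM in M4, all of it CD68, and to 4.06 to 25.1 elsewhere. The part of these lists in the results was not tested.

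By the labels, replication genes were higher in M2, M3 and M4 than in M1. Their summed level was 1979 and 2031 CPM (M1), 3869 and 3803 (M2), 3572 and 3582 (M3) and 3180 and 3625 (M4), so that the lowest of the 6 derived libraries stood at 1.59 times the M1 mean. Of the 50 genes, 44 (88.0%) had all 6 of these libraries above both M1 libraries, as did 13.8% of all genes tested. The 6 exceptions were ORC2, GMNN, POLE, POLD1, LIG1 and RPA1. The mean level was highest in M2 for 23 genes, in M3 for 15 and in M4 for 12, and in M1 for 0. The values of this paragraph are given by the labels only. Under the other assignment the library with the highest sum, 3869 CPM, would count as M1. In bulk RNA, fewer cells in cycle and less RNA per cycling cell cannot be told apart.

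**Figure D1:**
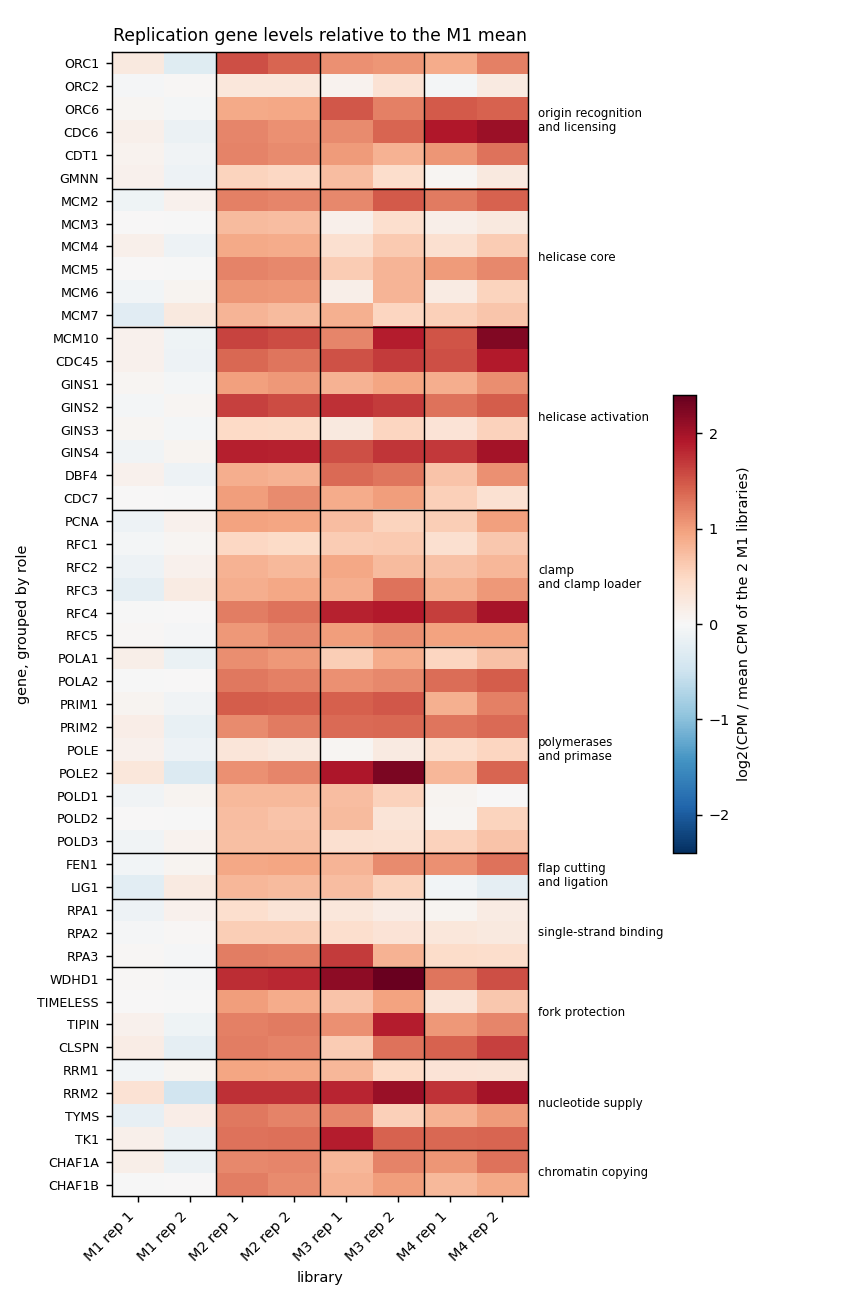
Level of each of the 50 replication genes (rows, grouped by role) in each of the 8 libraries (columns), as log2 of its CPM over the mean CPM of both M1 libraries. Red is higher and blue lower than that mean, and the M2, M3 and M4 columns are red for nearly every gene, while ORC2, RPA1, POLE and, in M4, POLD1 and LIG1 stay close to white.

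M2 was compared to M1 to ask what followed HRAS transfection and xenograft selection within the medium that holds EGF. A gene was counted as changed when its adjusted p in edgeR's quasi-likelihood test was under 0.05, and as over 2-fold when its log2 fold change also exceeded 1. In M2, 40 of the 50 genes rose and 0 fell, where 3.37% of all genes tested rose and 1.46% fell. Of these, 27 rose over 2-fold, against 2.26% of all genes. The median log2 fold change was 1.08, where the median over all genes was -0.035. The size of the shift stayed close without either M2 library (median 1.08 and 1.05). Nearly all calls were lost in both of these edgeR fits, over all genes as well as in this list. Both lone-library fits take the spread of M2 from the other lines. Without M1 replicate 1 or M1 replicate 2 the median was 1.07 and 1.03. DESeq2 passed 45 genes with all libraries, where it passed 2451 of all 18431.

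M3 compared to M1 gave 40 genes higher and 0 lower, 23 of them over 2-fold, where 12.9% of all genes rose, 8.33% fell and 8.02% rose over 2-fold. When only the 2 lines were fitted, 25 passed at any fold, where 1794 of all 17379 genes did. The median log2 fold change of the list was 0.94. M4 compared to M1 gave 36 genes higher and 0 lower, 22 of them over 2-fold, where 15.6% of all genes rose, 15.8% fell and 9.48% rose over 2-fold. The median was again 0.94, and 49 of the 50 changes were positive, with LIG1 the exception at a log2 fold change of -0.14. Leaving out each library in turn gave 22 to 25 genes over 2-fold in M3 and 18 to 25 in M4.

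Across the 3 comparisons, which share the M1 libraries, 30 genes rose in every line (2.54% of all genes did), 10 in 2 lines, 6 in 1 line and 4 in none (ORC2, GINS3, POLD2 and RPA1). Over 2-fold in every line (1.58% of all genes) were 17 genes: ORC1, CDC6, MCM2, MCM10, CDC45, GINS2, GINS4, RFC4, POLA2, PRIM1, PRIM2, WDHD1, TIPIN, CLSPN, RRM2, TK1 and CHAF1A. Under the assignment of the supplementary table, with M1 and M2 each made of 1 library of either label, 0 of the 50 genes passed in M2, M3 or M4 against M1 in edgeR, with an unadjusted p under 0.05 for 0, 1 and 2 genes. Of all 18431 genes, 0, 223 and 1815 passed in that fit. The median log2 fold changes of the list were then -0.026, 0.31 and 0.28. As measured, the 50 genes had a median log2 ratio of -0.030 in M1 replicate 2 over M1 replicate 1, with 21 higher and 29 lower, and each of the 50 was higher in both M2 libraries than in the mean of the M1 libraries. Between the libraries themselves, every gene was higher in M3 replicate 1 than in the mean of the libraries labelled M1, as it was in M3 replicate 2, and 48 of 50 were higher in M4 replicate 1 and 49 in M4 replicate 2.

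**Figure D2:**
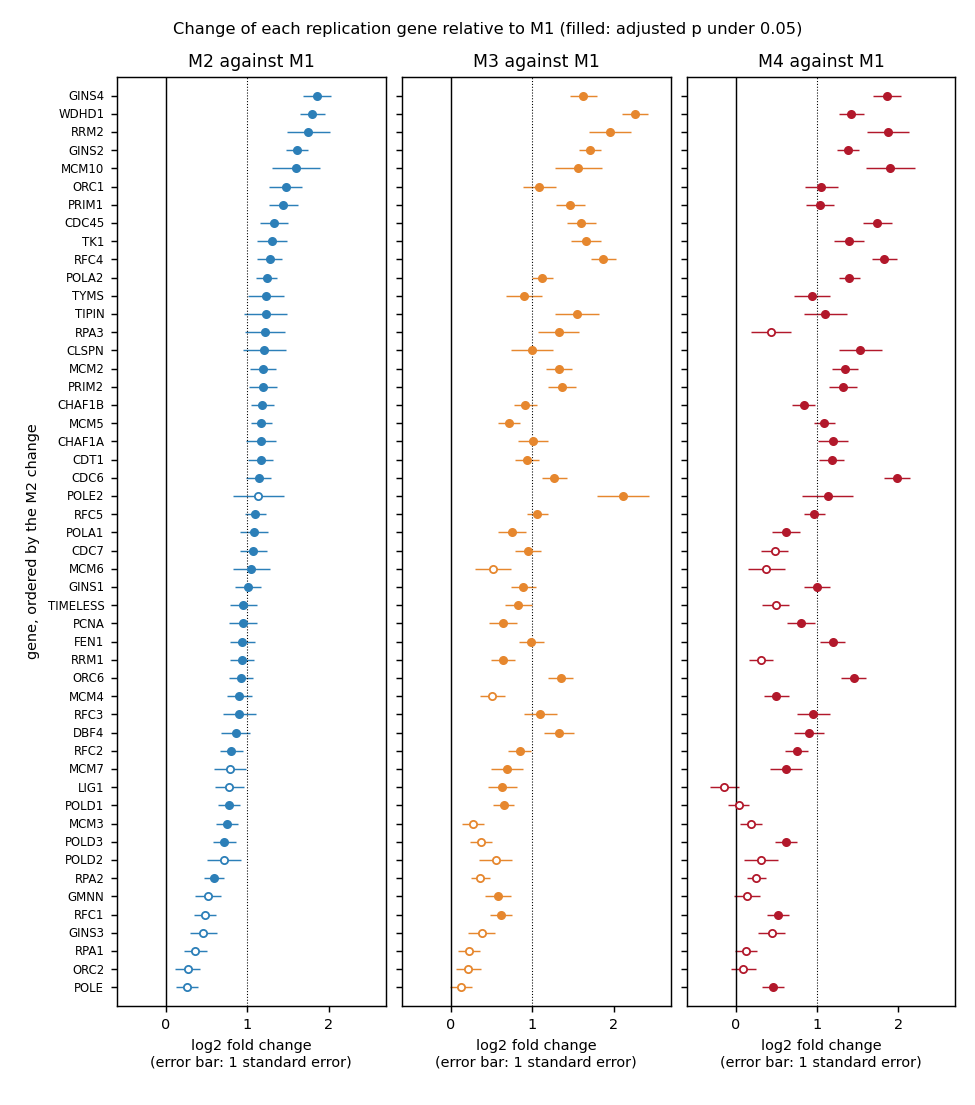
Log2 fold change from M1 of each replication gene (rows, ordered by the M2 change) in M2, M3 and M4, with 1 standard error; filled points have an adjusted p under 0.05 and the dotted line marks 2-fold. Nearly all points lie right of 0 in each panel, and POLD1, LIG1, RPA3 and RRM1 sit closer to 0 in M4 than in M2.

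Promoter sequence of these genes is shown because many of them are textbook E2F targets and most of the list rose. RefSeq promoters (GRCh38.p14, from 250 bases before to 50 after each start) were found for 44 of the 50 genes, and MCM4, MCM5, GINS4, RPA2, RPA3 and POLD3 had no entry. Where a gene had several starts, as for 10 of the 44, a match at any of them was counted. On either strand, 21 of the 44 (47.7%) held TTTGGCGC, TTTCCCGC, TTTCGCGC or TTTGCCGC, the 8-letter E2F sites searched, as did 3.99% of all 27305 genes with a promoter of that length and 5.40% of protein-coding genes. CCAAT was in 27 of the 44 (61.4%), in 39.7% of all genes and in 42.1% of protein-coding genes. TTTGAA or TTCGAA, the letters of a cell cycle homology region, were in 3 (6.82%), 19.5% and 17.5%. Of the related replication genes described further on, 49 had a promoter. An E2F site was in 22.4% of these, CCAAT in 57.1% and the cell cycle homology letters in 16.3%. Of the 29 E2F matches, 25 began before the start and 13 began within the 60 bases before it, and those of MCM2, MCM6 and TIPIN include overlapping matches on opposite strands. The windows of 30 bases shown here are in the direction of the gene with the match in capitals. The first 6 belong to genes that rose in at least 2 of the 3 lines, and the last 2, GMNN and POLE, to genes that rose in 1.
MCM2: cgtgaaccactTTTCGCGCgaaacctggtt
CDC6: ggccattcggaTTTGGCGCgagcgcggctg
CDT1: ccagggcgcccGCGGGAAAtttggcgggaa
GINS2: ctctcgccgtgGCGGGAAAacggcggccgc
PCNA: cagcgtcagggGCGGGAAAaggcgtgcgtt
POLE2: ctgcggcggtgGCGCCAAAtcgcaaatatg
GMNN: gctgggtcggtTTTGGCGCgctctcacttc
POLE: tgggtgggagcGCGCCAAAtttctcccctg
In GRCh38.p14 the windows of MCM2 (chr3:127598402-127598431), CDC6 (chr17:40287875-40287904), CDT1 (chr16:88803743-88803772) and GMNN (chr6:24775322-24775351) are on the plus strand, and those of GINS2 (chr16:85688967-85688996), PCNA (chr20:5126663-5126692), POLE2 (chr14:49688201-49688230) and POLE (chr12:132687342-132687371) on the minus strand. The median log2 fold change was 1.07 with and 1.10 without an E2F match in M2, with 0.90 and 1.06 for M3 and 0.94 and 1.03 for M4. Neither this difference nor a part of E2F in the changes was tested. Of the genes that rose over 2-fold in every line, MCM2, CDC6, GINS2, POLA2, TIPIN and CLSPN held an E2F match. ORC1, MCM10, CDC45, RFC4, PRIM1, PRIM2, WDHD1, RRM2, TK1 and CHAF1A held none, and GINS4 had no entry.

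Among the 6 origin recognition and licensing genes, 4 rose in M2, 5 in M3 and 4 in M4. CDC6 (ENSG00000094804, GRCh37 chr17:38444131-38460909), the ATPase that helps to place MCM2-7 on origins, was at 27.7 and 23.03 CPM in the M1 libraries, 57.3 and 54.4 for M2, 55.6 and 66.98 for M3 and 95.8 and 105 for M4. M4 libraries were the highest and M1 the lowest, and neither overlapped another line. The log2 fold changes from M1 were 1.14 ± 0.16 (SE) in M2, 1.27 ± 0.16 in M3 and 1.98 ± 0.16 in M4 (edgeR adjusted p = 0.0104, 0.00218 and 0.000278). ORC1, the subunit of the origin recognition complex whose level follows the cell cycle, was at 19.1 and 13.3 CPM (M1), 47.2 and 42.6 (M2), 34.8 and 33.9 (M3) and 29.98 and 37.2 (M4). It stood highest in M2, with log2 fold changes of 1.47 ± 0.20 (SE) in M2, 1.09 ± 0.20 in M3 and 1.05 ± 0.20 in M4 (edgeR adjusted p = 0.0105, 0.00968 and 0.00717). ORC6, the smallest subunit, was at 12.96 and 12.1 CPM in the M1 libraries, 23.6 and 23.9 for M2, 35.03 and 28.8 for M3 and 34.9 and 33.6 for M4, and here M3 and M4 were above M2. Its log2 fold changes were 0.92 ± 0.15 (SE) in M2, 1.35 ± 0.15 in M3 and 1.45 ± 0.15 in M4 (edgeR adjusted p = 0.0172, 0.00152 and 0.000664). ORC2 was steady by comparison, between 30.5 and 39.8 CPM in all 8 libraries, and passed in no line.

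CDT1, which brings the helicase to the origin together with CDC6, was at 20.7 and 18.6 CPM (M1), 44.8 and 43.3 (M2), 40.2 and 35.2 (M3) and 40.8 and 48.3 (M4). All derived libraries were well above M1. The log2 fold changes of CDT1 were 1.16 ± 0.15 (SE) in M2, 0.94 ± 0.15 in M3 and 1.18 ± 0.15 in M4 (edgeR adjusted p = 0.00886, 0.00573 and 0.00151). Its inhibitor GMNN was at 42.4 and 36.2 CPM in the M1 libraries, 56.6 and 55.8 for M2, 65.3 and 52.4 for M3 and 40.7 and 46.03 for M4, so that M4 overlapped M1. GMNN changed by 0.52 ± 0.16 (SE, log2) in M2, 0.58 ± 0.16 in M3 and 0.14 ± 0.16 in M4 (edgeR adjusted p = 0.11, 0.0375 and 0.535). The ratio of GMNN to CDT1 in CPM, compared between libraries, was 2.04 and 1.94 (M1), 1.26 and 1.29 (M2), 1.63 and 1.49 (M3) and 0.997 and 0.952 (M4), and the lines did not overlap in it. Both genes rose in M3, CDT1 also rose in M2 and M4, and the difference between the genes was not tested.

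Of the 6 subunits of the MCM2-7 helicase, 5 rose in M2, 3 in M3 and 4 in M4. Per kilobase of the canonical transcript, MCM7 was the highest in every line (61.6 CPM per kb in M1 and 106 in M2, means of 2), and MCM5 and MCM6 were the lowest in M1 (14.8 and 15.6). MCM2 (ENSG00000073111, GRCh37 chr3:127317253-127341279) was at 62.9 and 72.9 CPM (M1), 158 and 153 (M2), 152 and 189 (M3) and 162 and 182 (M4). It was the subunit with the largest change in every line, with log2 fold changes of 1.20 ± 0.16 (SE) in M2, 1.33 ± 0.16 in M3 and 1.34 ± 0.16 in M4 (edgeR adjusted p = 0.00965, 0.00198 and 0.00114). MCM5 was at 51.6 and 50.5 CPM in the M1 libraries, 117 and 113 for M2, 77.9 and 89.6 for M3 and 104 and 114 for M4, with M3 between M1 and the other lines. The log2 fold changes of MCM5 were 1.17 ± 0.13 (SE) in M2, 0.71 ± 0.13 in M3 and 1.09 ± 0.13 in M4 (edgeR adjusted p = 0.00633, 0.00932 and 0.00121). The other 4 subunits were highest in M2 by their means. MCM3 rose in M2 alone (log2 fold change 0.75, 0.27 and 0.19 in M2, M3 and M4), as did MCM6 (1.05, 0.52 and 0.38). MCM4 rose in M2 and M4 (0.90 and 0.50) and MCM7 in M3 and M4 (0.69 and 0.62), with the remaining changes at 0.51 for MCM4 in M3 and 0.79 for MCM7 in M2. MCM6 spread between replicates of a line, at 65.0 and 103 CPM in M3, and reads of MCM7 can be shared with AP4M1, whose exons overlap it on the opposite strand.

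**Figure D3:**
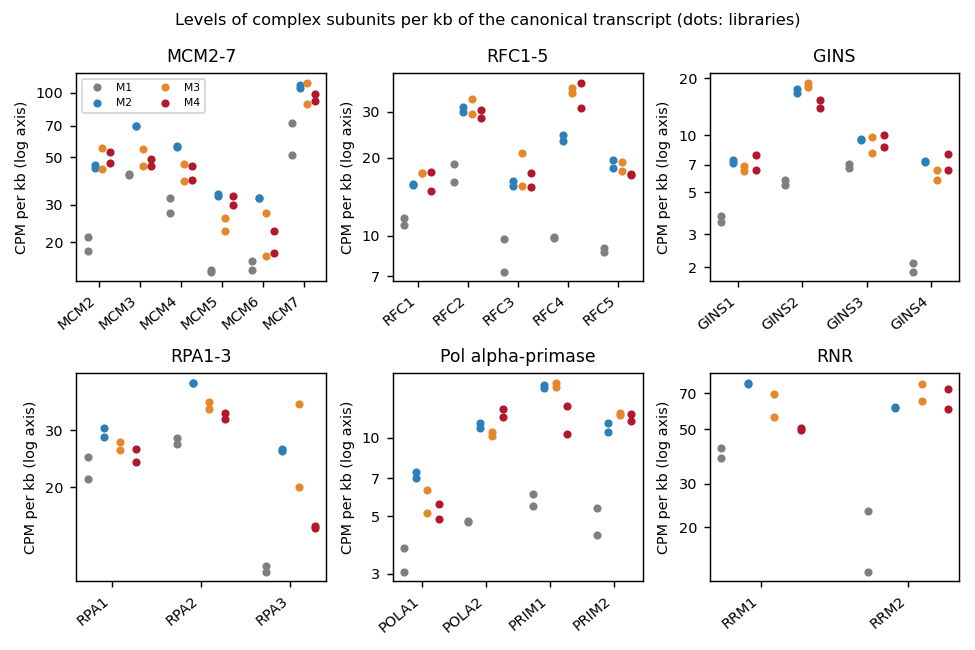
CPM per kb of canonical transcript (log axis) of the subunits of 6 complexes, with 1 dot per library colored by line. M1 (grey) is at the bottom for most subunits, its gap to the other lines is wide for GINS4, RFC4 and RRM2 and narrow for GINS3, RPA1 and RFC1, and the M4 dots of PRIM1, RPA3 and RRM1 lie under those of M2.

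Genes that activate the loaded helicase held some of the largest changes. Of 8 such genes, 7 rose in M2, 7 in M3 and 6 in M4. CDC45 (ENSG00000093009, GRCh37 chr22:19466980-19508135), which travels with MCM2-7 and GINS as the working helicase, was at 13.6 and 11.7 CPM (M1), 33.04 and 30.7 (M2), 36.3 and 40.7 (M3) and 37.1 and 47.6 (M4). The M1 libraries were lower than all others by over 2-fold. The log2 fold changes were 1.33 ± 0.17 (SE) in M2, 1.60 ± 0.17 in M3 and 1.74 ± 0.18 in M4 (edgeR adjusted p = 0.00886, 0.00143 and 0.000577). MCM10, needed for the helicase to start, was at 11.7 and 10.2 CPM in the M1 libraries, 33.8 and 32.3 for M2, 24.7 and 40.3 for M3 and 31.1 and 50.9 for M4. Replicates of M3 and M4 were far apart, and log2 fold changes were 1.59 ± 0.29 (SE) in M2, 1.57 ± 0.29 in M3 and 1.90 ± 0.30 in M4 (edgeR adjusted p = 0.0262, 0.0099 and 0.00318).

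GINS is a complex of 4 subunits present in equal number, and RNA of 3 of them rose in every line. GINS4 was at 7.15 and 7.95 CPM (M1), 27.6 and 27.1 (M2), 21.98 and 24.8 (M3) and 24.6 and 30.2 (M4) and had the largest change of all 50 genes in M2. GINS4 changed by 1.86 ± 0.17 (SE, log2) in M2, 1.63 ± 0.17 in M3 and 1.86 ± 0.17 in M4 (edgeR adjusted p = 0.00605, 0.00119 and 0.00041). GINS2 was at 14.3 and 15.3 CPM in the M1 libraries, 46.2 and 43.98 for M2, 49.9 and 47.4 for M3 and 36.6 and 40.5 for M4, with M3 and M2 above M4. Its log2 fold changes came to 1.61 ± 0.13 (SE) in M2, 1.71 ± 0.13 in M3 and 1.38 ± 0.13 in M4 (edgeR adjusted p = 0.00605, 0.000541 and 0.000505). GINS1 was at 12.3 and 11.6 CPM (M1), 23.5 and 24.6 (M2), 21.4 and 22.9 (M3) and 21.8 and 25.96 (M4). It rose in each line by close to 2-fold, with log2 fold changes of 1.01 ± 0.16 (SE) in M2, 0.89 ± 0.16 in M3 and 1.00 ± 0.16 in M4 (edgeR adjusted p = 0.0142, 0.00753 and 0.00315). GINS3, by contrast, ran from 14.7 to 22.1 CPM over all 8 libraries and passed in none (log2 fold change 0.46, 0.38 and 0.44). Exons of GINS1, GINS2, GINS3 and GINS4 each overlap a gene on the opposite strand, and no source used here states that the counting was stranded.

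DBF4 and CDC7 are the regulatory and catalytic parts of the kinase that fires origins. DBF4 was at 13.1 and 11.1 CPM in the M1 libraries, 22.1 and 21.7 for M2, 31.1 and 29.5 for M3 and 19.3 and 25.8 for M4, with M3 the highest line. The log2 fold changes of DBF4 were 0.86 ± 0.18 (SE) in M2, 1.33 ± 0.18 in M3 and 0.90 ± 0.18 in M4 (edgeR adjusted p = 0.04, 0.00312 and 0.00863). CDC7 was at 9.52 and 9.40 CPM (M1), 19.04 and 20.8 (M2), 17.5 and 19.05 (M3) and 14.2 and 12.2 (M4), and M4 lay between M1 and the other 2 lines. For CDC7 they were 1.07 ± 0.16 (SE) in M2, 0.95 ± 0.16 in M3 and 0.48 ± 0.16 in M4 (edgeR adjusted p = 0.0142, 0.00736 and 0.0576). Its change in M4 did not pass.

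The clamp and its loader rose as a set, with 5 of 6 genes passing in M2 and 6 of 6 in M3 and in M4. PCNA (ENSG00000132646, GRCh37 chr20:5095599-5107272), the ring that holds polymerases to DNA, was at 102 and 119 CPM in the M1 libraries, 215 and 212 for M2, 184 and 161 for M3 and 167 and 218 for M4. It had the highest level per kilobase of any of the 50 genes in each line, from 86.6 CPM per kb in M1 to 167 in M2. PCNA rose in every line, by less than 2-fold, with log2 fold changes of 0.95 ± 0.17 (SE) in M2, 0.64 ± 0.17 in M3 and 0.80 ± 0.17 in M4 (edgeR adjusted p = 0.0244, 0.0347 and 0.0113). RFC4 was at 13.5 and 13.5 CPM (M1), 31.8 and 33.4 (M2), 48.2 and 50.5 (M3) and 42.6 and 53.1 (M4). Its M1 libraries were alike and lay below the rest by over 2-fold, and its log2 fold changes of 1.27 ± 0.15 (SE) in M2, 1.87 ± 0.15 in M3 and 1.83 ± 0.15 in M4 (edgeR adjusted p = 0.00719, 0.000547 and 0.000304) made it the subunit of the loader with the largest change. RFC5 was at 18.98 and 18.3 CPM in the M1 libraries, 38.4 and 41.3 for M2, 37.6 and 40.4 for M3 and 36.4 and 36.2 for M4, so that the derived libraries lay within 36.2 to 41.3. RFC5 changed from M1 by 1.10 ± 0.13 (SE, log2) in M2, 1.06 ± 0.13 in M3 and 0.96 ± 0.13 in M4 (edgeR adjusted p = 0.00719, 0.00203 and 0.00174). RFC3 was at 16.8 and 22.4 CPM (M1), 35.9 and 37.5 (M2), 36.04 and 48.1 (M3) and 35.6 and 40.4 (M4). M1 replicate 2 stood above M1 replicate 1, and both stayed below the derived lines. Log2 fold changes of RFC3 were 0.90 ± 0.20 (SE) in M2, 1.10 ± 0.20 in M3 and 0.95 ± 0.20 in M4 (edgeR adjusted p = 0.0462, 0.00886 and 0.0103). RFC1, the large subunit, and RFC2 changed less, by 0.48 to 0.62 and by 0.75 to 0.85. RFC1 did not pass in M2, while RFC2 passed in all lines. RFC4 shares exon sequence with EIF4A2 on the opposite strand.

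Polymerase alpha and primase lay down the first stretch of each new strand, and all 4 of their subunits rose in every line. POLA2 was at 16.7 and 16.9 CPM in the M1 libraries, 40.6 and 38.8 for M2, 35.98 and 37.4 for M3 and 42.7 and 45.99 for M4. The replicates were close in every line. POLA2 had log2 fold changes of 1.24 ± 0.13 (SE) in M2, 1.12 ± 0.13 in M3 and 1.40 ± 0.13 in M4 (edgeR adjusted p = 0.00605, 0.00159 and 0.000425). PRIM1, the catalytic primase subunit, was at 8.67 and 7.79 CPM (M1), 22.7 and 22.1 (M2), 22.3 and 23.2 (M3) and 14.8 and 18.9 (M4), with M4 between M1 and the others. PRIM1 had changes of 1.44 ± 0.18 (SE) in M2, 1.47 ± 0.18 in M3 and 1.03 ± 0.18 in M4 (edgeR adjusted p = 0.0077, 0.00195 and 0.00439). Its partner PRIM2 was at 9.03 and 7.10 CPM in the M1 libraries, 17.7 and 19.1 for M2, 20.6 and 20.96 for M3 and 19.6 and 20.8 for M4, and it was about as high in M4 as in M3. For PRIM2 the changes were 1.19 ± 0.17 (SE) in M2, 1.37 ± 0.17 in M3 and 1.32 ± 0.17 in M4 (edgeR adjusted p = 0.0125, 0.00251 and 0.00166). POLA1, the catalytic subunit, rose by 1.08, 0.75 and 0.62 on the log2 scale in M2, M3 and M4, the smallest change of the 4 subunits in each. PRIM1 shares exon sequence with NACA on its own strand and PRIM2 with PRIM2BP, so their counts depend on how reads were divided.

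Polymerase epsilon copies the leading strand. POLE (ENSG00000177084, GRCh37 chr12:133200339-133263962), its catalytic subunit, was at 62.4 and 53.6 CPM (M1), 70.6 and 68.5 (M2), 59.5 and 66.9 (M3) and 77.1 and 82.4 (M4). M3 overlapped M1. POLE changed by 0.26 ± 0.14 (SE, log2) in M2, 0.13 ± 0.14 in M3 and 0.46 ± 0.14 in M4 (edgeR adjusted p = 0.293, 0.548 and 0.0367). POLE2, its second subunit, was at 3.34 and 2.21 CPM in the M1 libraries, 5.94 and 6.25 for M2, 10.7 and 13.3 for M3 and 4.81 and 7.34 for M4, and M3 was the highest line. POLE2 changed by 1.14 ± 0.31 (SE, log2) in M2, 2.11 ± 0.32 in M3 and 1.13 ± 0.31 in M4 (edgeR adjusted p = 0.0817, 0.00448 and 0.0282). The ratio of POLE to POLE2 in CPM was 18.7 and 24.3 for M1, 11.9 and 10.95 for M2, 5.58 and 5.02 for M3 and 16.0 and 11.2 for M4, lowest in M3, and the difference between both genes was not tested. Of polymerase delta, which copies the lagging strand, POLD1 rose in M2 and M3 (0.77 and 0.65) and POLD3 in M2 and M4 (0.72 and 0.62), and POLD2 passed in no line.

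FEN1 trims the flaps between Okazaki fragments and LIG1 seals them. FEN1 was at 52.5 and 57.3 CPM (M1), 104 and 106 (M2), 97.04 and 120.3 (M3) and 117 and 135 (M4). All derived libraries stood above M1. FEN1 changed by 0.94 ± 0.15 (SE, log2) in M2, 0.99 ± 0.15 in M3 and 1.19 ± 0.15 in M4 (edgeR adjusted p = 0.0172, 0.00488 and 0.00152). LIG1 was at 39.7 and 54.8 CPM in the M1 libraries, 81.9 and 80.03 for M2, 78.5 and 68.1 for M3 and 45.2 and 40.5 for M4, so M4 lay with M1 and not with M2 and M3. LIG1 changed by 0.78 ± 0.18 (SE, log2) in M2, 0.63 ± 0.18 in M3 and -0.14 ± 0.18 in M4 (edgeR adjusted p = 0.0511, 0.0405 and 0.585). The ratio of LIG1 to FEN1 in CPM was 0.757 and 0.957 (M1), 0.785 and 0.753 (M2), 0.809 and 0.567 (M3) and 0.388 and 0.301 (M4), which made M4 the lowest line. FEN1 shares exon sequence with FADS2 on its own strand.

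RPA coats the bared template strand as 3 subunits. RPA1 passed in no line (103 to 148 CPM over all libraries) and RPA2 in M2 alone (log2 fold change 0.59). RPA3 was at 23.1 and 22.2 CPM (M1), 52.9 and 52.5 (M2), 72.98 and 40.6 (M3) and 30.8 and 30.3 (M4). The M3 replicates were far apart for this gene, and M4 lay nearer M1. RPA3 changed by 1.22 ± 0.25 (SE, log2) in M2, 1.32 ± 0.25 in M3 and 0.43 ± 0.25 in M4 (edgeR adjusted p = 0.0362, 0.01 and 0.222). RPA3 shares exon sequence with UMAD1 on the opposite strand.

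The fork protection genes keep helicase and polymerase together and carry the signal of a stalled fork. WDHD1 (ENSG00000198554, GRCh37 chr14:55405667-55493823), which ties the helicase to polymerase alpha, was at 13.5 and 13.2 CPM in the M1 libraries, 45.9 and 46.97 for M2, 58.9 and 69.2 for M3 and 32.5 and 38.97 for M4. It had the largest change of all 50 genes in M3, and the 4 lines did not overlap. WDHD1 changed by 1.80 ± 0.15 (SE, log2) in M2, 2.26 ± 0.16 in M3 and 1.42 ± 0.15 in M4 (edgeR adjusted p = 0.00605, 0.00035 and 0.000728). CLSPN, the adaptor that lets ATR activate CHK1, was at 9.73 and 7.38 CPM (M1), 20.1 and 19.5 (M2), 13.1 and 21.2 (M3) and 22.7 and 26.8 (M4). M3 replicate 1 was closest to M1. The changes of CLSPN were 1.21 ± 0.26 (SE) in M2, 1.00 ± 0.26 in M3 and 1.53 ± 0.26 in M4 (edgeR adjusted p = 0.0414, 0.0303 and 0.00446). TIPIN was at 6.39 and 5.57 CPM in the M1 libraries, 13.8 and 14.2 for M2, 12.9 and 22.2 for M3 and 12.3 and 13.4 for M4, with M3 replicate 2 above all others. TIPIN changed by 1.23 ± 0.27 (SE, log2) in M2, 1.55 ± 0.27 in M3 and 1.10 ± 0.27 in M4 (edgeR adjusted p = 0.0439, 0.00729 and 0.0172). Its partner TIMELESS rose in M2 and M3 (0.95 and 0.83) and did not pass in M4 (0.49).

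All 4 genes of deoxynucleotide supply rose in M2 and in M3, and 3 of 4 in M4. RRM2 (ENSG00000171848, GRCh37 chr2:10260825-10351851), the subunit that limits ribonucleotide reductase during S phase, was at 75.8 and 42.97 CPM (M1), 199 and 201 (M2), 211 and 249 (M3) and 197 and 237 (M4). Both M1 libraries were far below the rest. RRM2 changed by 1.75 ± 0.26 (SE, log2) in M2, 1.96 ± 0.26 in M3 and 1.87 ± 0.26 in M4 (edgeR adjusted p = 0.013, 0.00293 and 0.00209). RRM1, the large subunit, was at 121 and 132 CPM in the M1 libraries, 243 and 241 for M2, 219 and 176 for M3 and 159 and 156 for M4, and rose in M2 and M3 but did not pass in M4. RRM1 changed by 0.94 ± 0.15 (SE, log2) in M2, 0.64 ± 0.15 in M3 and 0.32 ± 0.15 in M4 (edgeR adjusted p = 0.0156, 0.0205 and 0.139). The ratio of RRM2 to RRM1 in CPM was 0.629 and 0.325 for M1, 0.820 and 0.833 for M2, 0.967 and 1.42 for M3 and 1.24 and 1.52 for M4.

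TK1, the salvage kinase for thymidine, was at 36.9 and 30.8 CPM (M1), 83.00 and 84.2 (M2), 125 and 89.8 (M3) and 88.5 and 89.4 (M4). All derived libraries were over 2-fold above both M1 libraries. TK1 changed by 1.30 ± 0.18 (SE, log2) in M2, 1.66 ± 0.18 in M3 and 1.39 ± 0.18 in M4 (edgeR adjusted p = 0.0105, 0.00146 and 0.00157). TYMS, which makes thymidylate, was at 29.5 and 37.8 CPM in the M1 libraries, 80.3 and 76.98 for M2, 75.6 and 49.8 for M3 and 59.9 and 68.7 for M4. M3 replicate 2 was nearest to M1. TYMS changed by 1.23 ± 0.22 (SE, log2) in M2, 0.90 ± 0.22 in M3 and 0.94 ± 0.22 in M4 (edgeR adjusted p = 0.0234, 0.0253 and 0.0157). Exons of TYMS overlap ENOSF1 and TYMSOS on the opposite strand.

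CHAF1A and CHAF1B are the large and middle subunits of CAF-1, which sets histones onto new DNA behind the fork. CHAF1A was at 23.7 and 19.5 CPM (M1), 48.3 and 48.7 (M2), 37.6 and 49.4 (M3) and 45.2 and 53.5 (M4). CHAF1A changed by 1.17 ± 0.18 (SE, log2) in M2, 1.01 ± 0.18 in M3 and 1.19 ± 0.18 in M4 (edgeR adjusted p = 0.0156, 0.00873 and 0.00307). CHAF1B was at 14.3 and 14.6 CPM in the M1 libraries, 33.8 and 31.7 for M2, 25.7 and 28.7 for M3 and 24.6 and 26.99 for M4. Both were above M1 in all 6 derived libraries. CHAF1B changed by 1.18 ± 0.14 (SE, log2) in M2, 0.92 ± 0.14 in M3 and 0.84 ± 0.14 in M4 (edgeR adjusted p = 0.00746, 0.00478 and 0.00437).

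M3 was compared to M2 to ask what differs in a line taken from a carcinoma that grew from M2 cells. Of the 50 genes, 0 passed in the edgeR fit, where 5.55% of all genes passed the same adjusted threshold and 4.15% also changed over 2-fold. An unadjusted p under 0.05 in edgeR was reached by 10 of the 50, and the share of all genes at that threshold is not given here. In DESeq2 4 of the 50 passed, and 2382 of all 18431 genes. The smallest adjusted p was 0.0594 for RFC4, at a log2 fold change of 0.60. The median log2 fold change of the list was -0.10. A p that misses the threshold does not show that the lines have equal levels, and this comparison also spans the change of medium.

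M4 compared to M2 gave 8 of the 50 genes changed, against 22.2% of all genes, and 0 of them by over 2-fold, against 13.9% (DESeq2 also gave 0 over 2-fold, with 10 changed where 5486 of all genes did). ORC6, CDC6 and RFC4 were higher in M4, by 0.53, 0.84 and 0.55 on the log2 scale (edgeR adjusted p = 0.0402, 0.00878 and 0.0333). MCM3, CDC7, POLD1, LIG1 and RRM1 were lower, with log2 fold changes of -0.56, -0.59, -0.74, -0.92 and -0.62 (adjusted p = 0.0251, 0.037, 0.00767, 0.0108 and 0.0222). Of these 8, 0 passed without M2 replicate 1, M2 replicate 2 or M4 replicate 2, and 3 genes passed without M4 replicate 1.

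M4 compared to M3, within the medium without EGF, gave 5 genes changed, against 16.8% of all genes, and 0 by over 2-fold, against 10.3% (in DESeq2 7 changed, where 4627 of all genes did, and 0 over 2-fold). CDC6 was higher in M4 (log2 fold change 0.71, SE 0.15, edgeR adjusted p = 0.0219). The change of WDHD1 was -0.84 (SE 0.15, adjusted p = 0.0115), that of POLD1 -0.61 (SE 0.13, adjusted p = 0.0204), that of LIG1 -0.77 (SE 0.18, adjusted p = 0.0257) and that of RPA3 -0.89 (SE 0.25, adjusted p = 0.0449), all lower in M4 on the log2 scale. POLD1, the catalytic subunit of polymerase delta, was at 45.4 and 50.4 CPM (M1), 81.9 and 82.01 (M2), 79.7 and 70.6 (M3) and 50.3 and 48.1 (M4). In both POLD1 and LIG1 the M4 libraries were below every M2 and M3 library and lay among or next to those of M1. The spread was estimated over all 8 libraries. The comparison gave 0 genes without M4 replicate 1 and 1 without M4 replicate 2, M3 replicate 1, M2 replicate 1 or M2 replicate 2, and RPA3 passed 2-fold without M3 replicate 2 (log2 fold change -1.26). Under the other assignment of the libraries, 0 of the 50 genes passed in edgeR in M3 against M2, M4 against M2 or M4 against M3, with an unadjusted p under 0.05 for 2, 2 and 0 genes. Of all 18431 genes, 214, 2233 and 930 passed in these comparisons. The direction of the list then turned, with a median log2 fold change of 0.35 in M3 against M2 (-0.10 by the labels) and of 0.27 in M4 against M2 (-0.11 by the labels).

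**Figure D4:**
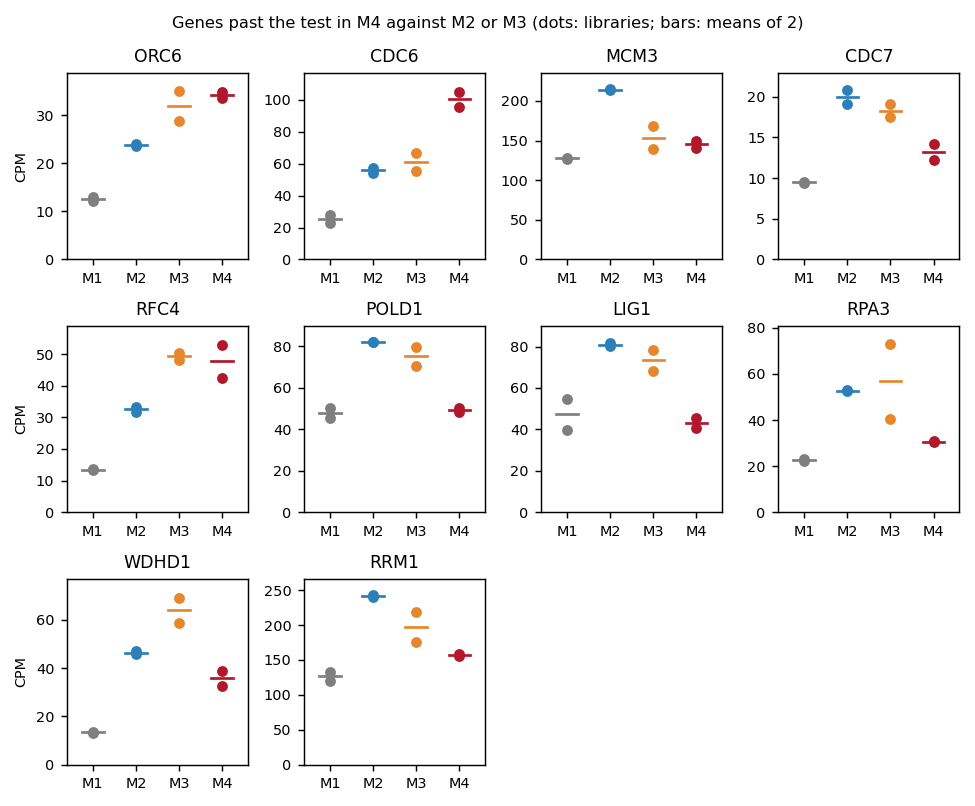
CPM in each library (dots) and line mean of 2 (bars) for the genes that passed in M4 against M2 or against M3. CDC6 stands highest in M4, at 95.8 and 105 CPM, while POLD1 and LIG1 are at 40.5 to 50.3 CPM there, the range of M1.

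A wider list of 59 genes of replication and its surroundings was examined for context (other ORC and origin factors, accessory polymerase subunits, topoisomerases, histone chaperones, nucleotide metabolism and checkpoint genes). Of these, 21 passed in M2, 31 in M3 and 32 in M4 compared to M1, where 891, 3918 and 5779 of all 18431 genes did. All that passed were higher except RBBP4 in M4 (log2 fold change -0.92). Over 2-fold, 15, 17 and 19 rose, against 2.26%, 8.02% and 9.48% of all genes. The 59 genes had median log2 fold changes of 0.54, 0.56 and 0.56. DTL, the adaptor that sends CDT1 for destruction, was at 15.8 and 15.9 CPM (M1), 49.7 and 49.4 (M2), 50.1 and 72.6 (M3) and 48.7 and 57.7 (M4), with log2 fold changes of 1.65, 1.95 and 1.75 (edgeR adjusted p = 0.0073, 0.00111 and 0.000857). CHEK1, the checkpoint kinase CHK1, rose by 1.06 in M2 and 1.11 in M3. ASF1B, a histone chaperone, rose by 1.19 in M2, and DUT, which clears dUTP, by 1.11 in M3. TOPBP1, which helps to fire origins and to activate ATR, and CHTF18, of an alternative clamp loader, rose by 1.12 and 1.68 in M4. In M4 compared to M3, 3 of the 59 genes (5.08%) changed over 2-fold, against 10.3% of all genes. DUT and POLE4, a small subunit of polymerase epsilon, were lower (-1.20 and -1.26). RRM2B, the ribonucleotide reductase subunit that p53 induces, was higher (1.34).

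The 59 related genes summed to 2918 and 2916 CPM in M1 and to between 3574 and 4281 in the other 6 libraries. A list of 12 mitosis genes summed to 599 and 449 CPM for M1, 1492 and 1469 for M2, 1808 and 1567 for M3 and 1312 and 1819 for M4. All 3 lists were lowest in both libraries labelled M1, and relative to these the mitosis genes stood higher than the replication genes in each derived library.

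**Figure D5:**
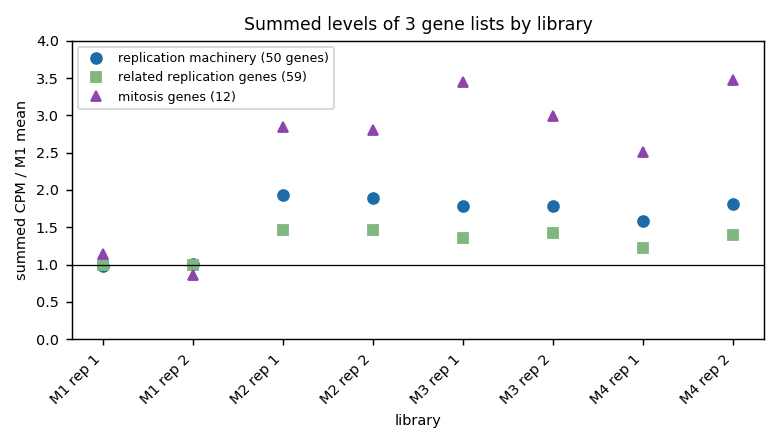
Summed CPM over the mean of both M1 libraries (vertical axis, from 0) in each of the 8 libraries for 3 gene lists. The 50 replication genes sit at 1.59 to 1.93 times the M1 mean in the derived libraries, with the 59 related genes below them and the 12 mitosis genes above.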

How the data were processed

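The deposited values are estimated counts per gene in 8 libraries of poly A+ RNA, 2 for each of M1 to M4, which the authors made with RSEM and did not normalize. The authors trimmed paired-end reads with Trimmomatic, aligned them with STAR to GRCh37 (hg19) and counted with RSEM on GENCODE release 19. Versions, and whether counting used strand, are not given in the sources used here.

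Counts were rounded to whole numbers. Lines and replicates came from the labels, and rows were matched to symbols, exons and canonical transcript lengths through GENCODE release 44 mapped to GRCh37. Genes kept by filterByExpr were scaled by TMM and fitted in edgeR 4.0.16 (R 4.3.3) with a mean for each line, and lines were compared by its robust quasi-likelihood test. P-values were adjusted over the 18431 genes by the Benjamini-Hochberg method. A standard error is that implied by the F statistic. DESeq2 1.42.0, other scalings and filters, a replicate block, each library left out and the supplementary table's assignment of libraries were alternatives. Python 3.11.15 with pandas 2.3.3 and numpy 2.4.6 did the rest, and matplotlib 3.10.9 drew the plots.

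The members and lists were chosen with earlier results of these data known. Values in every library were given for members over 2-fold in any comparison (at most the 30 with the smallest adjusted p) and always for MCM2, CDC6, CDT1, GMNN, PCNA, CDC45, RRM2 and POLE. Of the related genes, the 3 with the smallest adjusted p in each comparison to M1 were named. LIG1, POLD1, RRM1 and other genes were named after their values were seen. Exons of 26 members overlap those of another gene in GENCODE release 44, where the authors counted on release 19. Reads shared by such genes can make counts less certain, and 13 members had a non-whole count in any library.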

Additional observations from a re-analysis of the deposited data

Results flagged for a closer look

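In 5 replication genes the change from M3 to M4, the carcinoma lines grown without EGF, was itself past the test with the spread estimated over all lines. That spread included the M2 replicates, with a biological coefficient of variation of 0.0574, against 0.307 in M3 and 0.271 in M4. With only M3 and M4 fitted, 3 genes of the list passed at any fold. The log2 fold change of M4 against M3 was 0.71 for CDC6, a factor that loads the helicase. It was -0.61 for POLD1, the catalytic subunit of polymerase delta, and -0.77 for LIG1, the ligase that joins Okazaki fragments. It was -0.89 for RPA3, whose M3 replicates were at 73.0 and 40.6 CPM, and -0.84 for WDHD1, which links the helicase to polymerase alpha. Of these, WDHD1 lost the threshold when M4 replicate 1 was left out (edgeR adjusted p = 0.081), and the adjusted p of the other 4 genes ran up to 0.102, 0.103, 0.132 and 0.173 (CDC6, POLD1, LIG1 and RPA3) over the alternatives that kept the labels.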

How the results depend on the processing

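The count of replication genes over 2-fold in M2 compared to M1 was 27 with all libraries and 12 at an adjusted p under 0.01, 0 under the assignment of the supplementary table, and 0 to 27 when each library was left out in turn, with 0 without either M2 library. In M3 it was 23, with 40 at any fold, 0 under that assignment and 22 to 25 with a library left out, and in M4 it was 22, with 36 at any fold, 0 under that assignment and 18 to 25 with a library left out. M4 gave 8 genes at any fold against M2 and 5 against M3, where the count over 2-fold stayed at 0 against M2 and ran from 0 to 1 against M3 with a library left out. M3 against M2 gave 0 with every library left out in turn. The related genes over 2-fold were 15 in M2 (4 at an adjusted p under 0.01, 0 under that assignment, 0 to 15 with a library left out), 17 in M3 (31 at any fold, 0 under that assignment, 14 to 18) and 19 in M4 (32 at any fold, 3 under that assignment, 15 to 22). Other size factors, library totals, DESeq2, filters of none or of at least 20 counts in every library, and a fit of only the 2 lines compared kept the counts over 2-fold within 1.5 times. At any fold, the fit of only the 2 lines gave 25 genes in M3 against M1, 14 in M4 against M2 and 3 in M4 against M3. Of all genes, 1794, 6856 and 2141 passed in these fits. The loss of calls in M2 compared to M1 without an M2 library extended over all genes. Under the supplementary table's assignment, 0, 219 and 1559 of all 18431 genes were over 2-fold in M2, M3 and M4 against M1. With 2 libraries in each line the standard errors rest on few degrees of freedom.

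Across 13495 genes the correlation of deviations of same-numbered replicates was 0.217 between M3 and M4 and -0.0865 to 0.0074 for the other 5 pairs of lines, so not every pair deviated together and the numbers were not taken as pairs. With the replicate number as a replicate block, 25, 21 and 22 of the 50 genes were over 2-fold in M2, M3 and M4 compared to M1, and 36, 38 and 33 passed at any fold. The block left 0 genes in M3 against M2, 8 in M4 against M2 and 5 in M4 against M3 at any fold.

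Under the assignment of the supplementary table, M1 and M2 each hold a library of either label. M2 against M1 then gave a median log2 fold change of the list of -0.026. The members above 0 went from 20 to 47 of 50 in M3 against M2 and from 19 to 37 in M4 against M2. With the labels mixed in this way, 47 of the gene changes from M1 took the other sign. Against M1 the log2 fold changes of these genes were, in M2, ORC1 -0.25, ORC6 -0.020, CDC6 -0.14, CDT1 -0.084, GMNN -0.11, MCM3 -0.013, MCM4 -0.093, MCM5 -0.040, MCM10 -0.10, CDC45 -0.14, GINS2 -0.031, GINS3 -0.045, DBF4 -0.10, POLA1 -0.15, POLA2 -0.042, PRIM1 -0.068, PRIM2 -0.026, POLE -0.12, POLE2 -0.13, POLD2 -0.043, RPA3 -0.026, TIMELESS -0.085, TIPIN -0.032, CLSPN -0.15, RRM2 -0.17, TK1 -0.060, CHAF1A -0.077 and CHAF1B -0.054. In M3 they were MCM3 -0.16, MCM4 -0.055, MCM5 -0.0090, MCM6 -0.078 and POLE -0.073, and in M4 ORC2 -0.039, GMNN -0.19, MCM3 -0.24, MCM4 -0.066, MCM6 -0.22, CDC7 -0.11, POLA1 -0.097, POLD1 -0.37, POLD2 -0.11, RPA1 -0.039, RPA2 -0.062, RPA3 -0.32, TIMELESS -0.10 and RRM1 -0.21. With a library left out in turn, M4 compared to M1 gave ORC2 from -0.022 (without M4 replicate 2) to 0.22, POLD1 from -0.019 (without M1 replicate 1) to 0.12 and LIG1 from -0.34 to 0.11 (without M1 replicate 2). Of the other values of single genes, 411 kept their direction but lost the threshold, most of them under that assignment or without an M2 library, 31 gained it, and 2116 kept both.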
